A study of Mus musculus with 13 samples.

Results

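The genes described here are 38 members of the Eph, ephrin, Slit, Robo and netrin families. They were taken from the 35972 rows of the count table by their symbols: receptors Epha1 to Epha8, Epha10, Ephb1 to Ephb4 and Ephb6, ligands Efna1 to Efna5 and Efnb1 to Efnb3, Slit1 to Slit3, Robo1 to Robo4, the netrins Ntn1, Ntn3 and Ntn4, and the netrin receptors Dcc, Neo1 and Unc5a to Unc5d. The symbols matched 39 rows, because Efna5 had 2. The Efna5 row of larger total was used; the other held 0 counts in both neocortex libraries and 3 to 44 counts in the sorted-cell libraries. Members were matched by symbol and not by value, though the choice was made with earlier results of these data known.

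The series asks which genes Fezf2, a zinc-finger transcription factor of cortical progenitors and deep-layer neurons, regulates in the developing mouse neocortex. RNA was sequenced from 5 libraries of cells given Fezf2 and GFP plasmids and 3 of cells given GFP plasmid, all from CD-1 IGS mice electroporated in utero at E16.5 and sorted by fluorescence at P3. The sorting gate and the promoter of these plasmids are not given in the sources used here. A further 2 libraries came from whole P0 neocortex of C57BL6/J mice: 1 is labelled Fezf2 knockout, with a floxed Fezf2 allele deleted from progenitors by Emx1-cre, and 1 is labelled Fezf2 wild type. Both carry Emx-cre in their titles, and whether the wild-type animal carried Cre or a floxed allele is not spelled out. Each library is a sample of its own by its title, but nothing says that they came from separate animals, so p-values measure only the spread between these samples.

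Eph receptors are tyrosine kinases that bind ephrins on neighbouring cells. Ephrin-A ligands are tethered to the membrane by a lipid anchor and ephrin-B ligands span it, so that both partners can signal on contact, often by repulsion of the growth cone. Slits are secreted proteins that repel axons through Robo receptors. Netrins attract axons through Dcc and repel them where an Unc5 receptor takes part, and Neo1 is a relative of Dcc that also binds repulsive guidance molecules. In the cortex these families take part in the crossing of callosal axons, the descent of corticospinal axons, the migration of neurons along radial glia and the growth of vessels. Earlier work placed Ephb1 downstream of Fezf2 in corticospinal neurons.

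Total counts were 3484539 to 4221823 in the Fezf2 + GFP libraries, 3245932 to 5801839 in the GFP libraries, 17856211 in the library labelled knockout and 11818437 in the wild-type library. The 38 members together took 2398 to 3909 CPM (counts scaled to the library total, with TMM factors) in the Fezf2 + GFP libraries, 3343 to 3450 in the GFP libraries, 3891 in the library labelled knockout and 3732 in wild type. Fezf2 itself averaged 123.5 ± 28.7 CPM with Fezf2 + GFP (SD, n = 5) and 8.07 ± 4.28 CPM with GFP (SD, n = 3; log2 fold change 3.91, edgeR adjusted p = 6.27e-05). In the neocortex Fezf2 differed by less than counting error, with 53.5 CPM in the library labelled knockout against 51.4 CPM in wild type (log2 ratio 0.06, interval −0.09 to 0.21). The counts are per gene, and the labels do not say which part of Fezf2 is floxed, so this value does not check the genotype. Why Fezf2 was not lower was not tested, and every direction given for that library rests on its label. Among the Fezf2 + GFP libraries, replicates 1, 2 and 4 stood somewhat apart, with mean correlations to the other sorted-cell libraries of 0.916, 0.924 and 0.922, against 0.938 to 0.945 in the GFP libraries. For the members whose values move most, fold changes without these 3 libraries, a setting chosen after the data were seen, are given as well. Neocortical neuron markers were present in every library. Sums of 8 glutamatergic neuron genes were 1325 to 3476 CPM with Fezf2 + GFP, 2699 to 2850 CPM with GFP, 1785 CPM in the library labelled knockout and 2256 CPM in wild type.

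Of the 38 members, 33 had an entry in the promoter table used. The windows below run from 250 bases before to 50 bases after the start of the RefSeq gene model (GRCm38.p6), written 5′ to 3′ on the strand of the gene. They are shown for Ephb1 and Epha7, 2 receptors that were lower in the library labelled knockout, for Epha8, which was higher there, and for Epha3, the member of smallest p in sorted cells. Capitals mark GC boxes (GGGCGG on either strand) and CCAAT boxes (CCAAT on either strand), motifs common near start sites; the CCAAT box was added after the sequences were seen.
Ephb1, chr9:102354644-102354943, minus strand: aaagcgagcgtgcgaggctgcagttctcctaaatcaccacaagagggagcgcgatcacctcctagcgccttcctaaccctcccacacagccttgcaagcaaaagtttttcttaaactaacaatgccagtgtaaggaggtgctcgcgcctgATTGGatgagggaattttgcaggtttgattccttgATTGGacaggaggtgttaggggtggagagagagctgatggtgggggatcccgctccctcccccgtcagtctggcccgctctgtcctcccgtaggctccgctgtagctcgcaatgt
Epha7, chr4:28812881-28813180, plus strand, the first of 2 starts: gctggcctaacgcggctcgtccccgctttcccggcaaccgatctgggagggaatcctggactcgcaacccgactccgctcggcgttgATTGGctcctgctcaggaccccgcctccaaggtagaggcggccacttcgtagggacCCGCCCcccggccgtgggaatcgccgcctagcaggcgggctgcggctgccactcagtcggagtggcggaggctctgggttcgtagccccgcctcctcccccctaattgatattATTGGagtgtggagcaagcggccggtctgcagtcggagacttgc
Epha8, chr4:136956767-136957066, minus strand: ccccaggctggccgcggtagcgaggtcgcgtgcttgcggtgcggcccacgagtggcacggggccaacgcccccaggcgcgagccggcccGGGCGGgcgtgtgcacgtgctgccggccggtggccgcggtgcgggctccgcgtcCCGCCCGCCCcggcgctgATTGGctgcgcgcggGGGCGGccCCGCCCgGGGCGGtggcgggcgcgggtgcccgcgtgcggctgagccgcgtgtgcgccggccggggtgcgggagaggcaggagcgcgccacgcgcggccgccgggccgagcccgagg
Epha3, chr16:63864126-63864425, minus strand: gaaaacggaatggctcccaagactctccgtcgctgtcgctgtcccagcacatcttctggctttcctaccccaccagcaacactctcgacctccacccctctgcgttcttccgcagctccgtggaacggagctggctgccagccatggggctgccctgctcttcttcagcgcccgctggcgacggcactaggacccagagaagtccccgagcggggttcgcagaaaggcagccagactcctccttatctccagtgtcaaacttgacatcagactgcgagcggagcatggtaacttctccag
The Ephb1 window held 2 CCAAT boxes and no GC box, and the Epha7 window 2 CCAAT boxes and 1 GC box. The Epha8 window held 6 GC boxes, of which 2 overlap, and 1 CCAAT box, with 56 CpG dinucleotides and a GC content of 84.3%. The Epha3 window held neither motif and 18 CpG dinucleotides. Over the first listed window of each of the 33 members, 24 (72.7%) held a GC box and 14 (42.4%) a CCAAT box. The shares among all 32851 windows of that length were 35.7% and 37.4%. That background takes in every listed window, while each member gave only its first. Its median number of CpG dinucleotides was 7, against 22 in the member windows, so the shares are not of like sets. The TATA motif TATAAA, on either strand, was found in 2 member windows and in 13.6% of all windows. These matches are descriptions of letters and not binding sites.

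Neo1 and Efnb2 were the most abundant of these transcripts in sorted cells once gene length was taken into account. Per kilobase of gene model, Neo1 had 67.6 ± 4.32 CPM with Fezf2 + GFP and 61.0 ± 5.08 CPM with GFP (SD, n = 5 and n = 3). Efnb2, a transmembrane ligand of EphB receptors and of Epha4, followed at 52.1 ± 3.92 and 59.0 ± 4.89 CPM per kb, in the same order of groups. Epha4 binds ephrins of either class and is a receptor through which corticospinal axons are repelled at the midline. It had 35.6 ± 5.08 CPM per kb with Fezf2 + GFP and 32.1 ± 1.35 with GFP. Unc5d, Robo2, Robo1 and Efnb3 lay at a similar level, at 29.7, 26.02, 25.98 and 29.4 CPM per kb with Fezf2 + GFP and 36.1, 33.6, 31.3 and 30.7 with GFP. Ligands of the Slit family were far lower, with Slit2 at 3.94 ± 1.25 CPM per kb with Fezf2 + GFP and 3.75 ± 0.498 with GFP. The summed netrin level was 7.29 ± 2.55 CPM per kb with Fezf2 + GFP and 6.78 ± 0.765 with GFP, against 131 ± 17.5 and 130.2 ± 2.75 CPM per kb for the 6 netrin receptors. At this age the sorted cells thus held many more transcripts per length of Slit and netrin receptors than of the ligands: Robo genes summed to 52.8 ± 18.5 CPM per kb with Fezf2 + GFP and 65.3 ± 1.28 with GFP, and Slit genes to 7.03 ± 2.0 and 6.84 ± 1.61 in the same order.

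**Figure D1:**
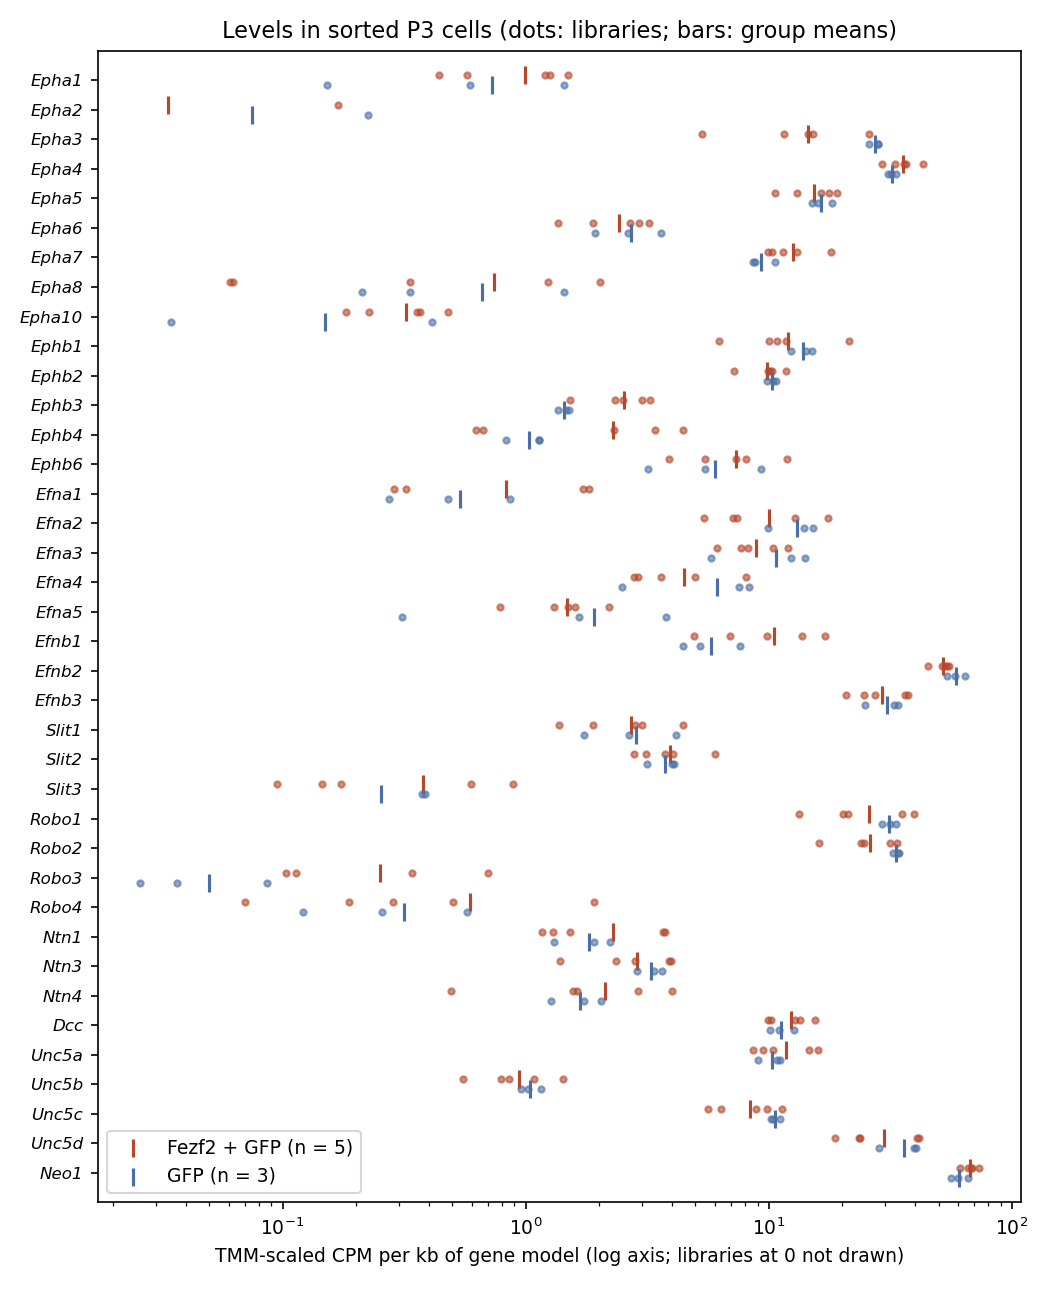
Levels of the 38 members in sorted P3 cells, in TMM-scaled CPM per kb of gene model on a log axis, for 5 Fezf2 + GFP and 3 GFP libraries. Dots are libraries and bars are group means. Neo1 and Efnb2 were the highest, at means of 52.1 to 67.6 CPM per kb, and Epha2 and Robo3 the lowest.

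The first comparison asked which members changed in cells given Fezf2. None of the 33 members that passed the count filter passed the test over all 13754 genes (edgeR quasi-likelihood test, Benjamini-Hochberg adjusted p of 0.729 to 0.979). The share of all genes called was 0.0145%. At an unadjusted p under 0.05 edgeR gave 4 members, 3 with higher means (Epha7, Ephb3 and Efnb1) and 1 with a lower mean (Epha3), and DESeq2 gave the same 4. Without Fezf2 + GFP replicates 1, 2 and 4, edgeR gave 5 members at that p, all with lower means (Epha3, Ephb1, Robo1, Robo2 and Unc5d), so that Epha3 alone was common to both sets. With all libraries, the background shares at that p were 6.55% of all genes, 4.31% higher and 2.24% lower. Without replicates 1, 2 and 4, 1238 of 14021 genes had such a p, beside 5 of 34 members. The groups did not overlap for 1 member, Ephb3, against 4.71% of all genes; the number was 2 to 5 when any single library was left out, and 5 without Fezf2 + GFP replicate 1 (Epha3, Ephb1, Ephb3, Robo2 and Unc5c). Groups of fewer libraries separate more easily for any gene. The share of all genes was not computed there, so these larger numbers are not a result about the members. Log2 fold changes were above 0 for 15 members and below 0 for 18, with a median of −0.06, against 0.02 over all genes. Standard errors of the members ran from 0.13 to 0.96 with a median of 0.32. Epha2, Efna1, Slit3, Robo3 and Robo4 had too few counts to be tested.

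**Figure D2:**
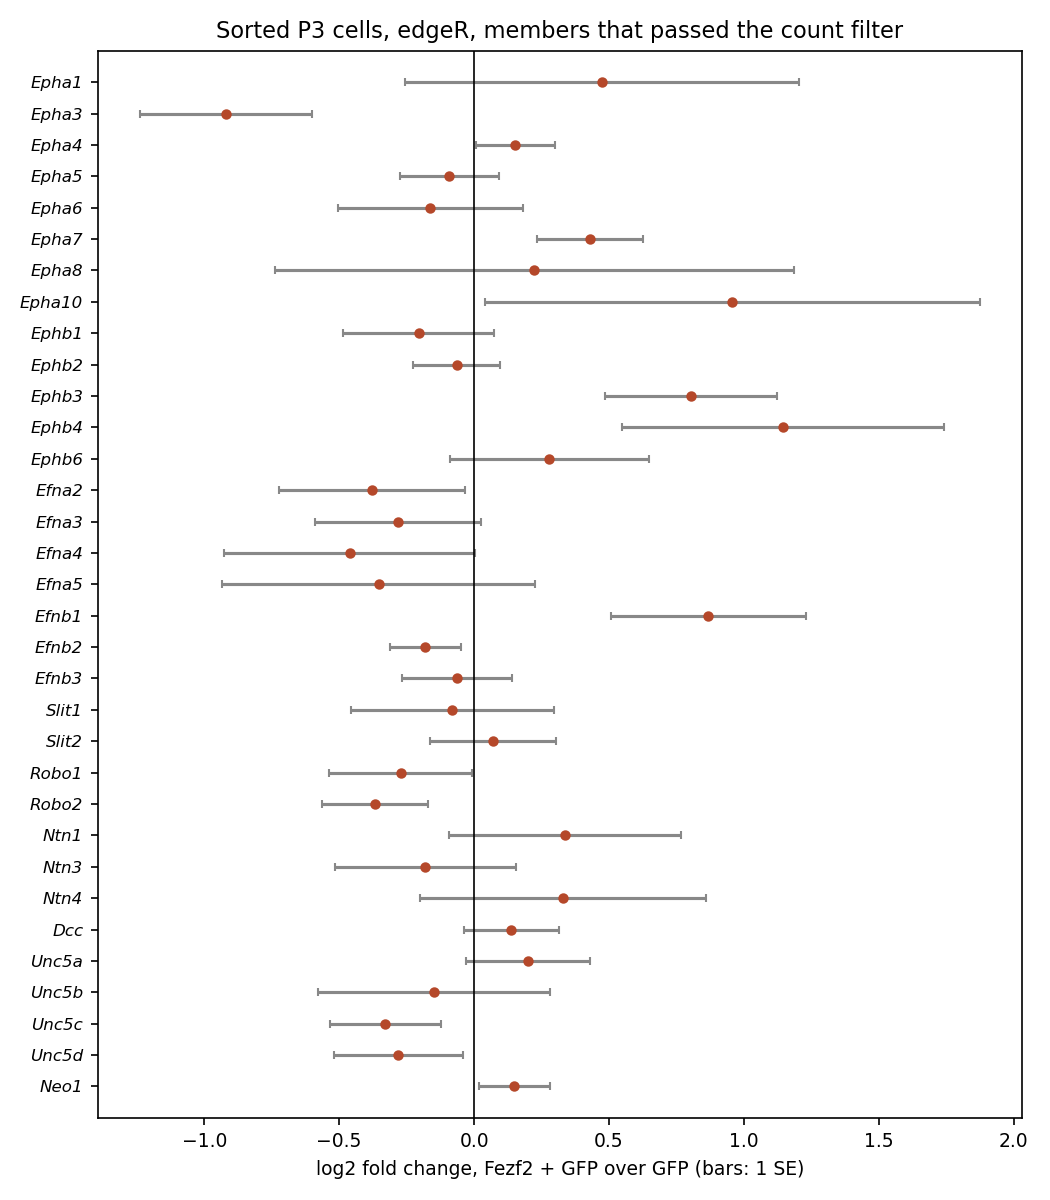
Log2 fold changes of the 33 tested members, Fezf2 + GFP over GFP, in sorted P3 cells from edgeR; bars are 1 SE. Epha3 lay lowest at −0.92, and Ephb4, Epha10, Efnb1 and Ephb3 highest at 1.15, 0.96, 0.87 and 0.80.

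Among EphA receptors, Epha3 stood out by the size of its difference. Epha3, a receptor of ephrin-A ligands found on callosal axons among other sites, had 147.7, 82.8, 86.2, 30.3 and 65.6 CPM in Fezf2 + GFP replicates 1 to 5, against 160.9, 147.0 and 160.1 CPM in GFP replicates 1 to 3. All 5 Fezf2 + GFP libraries lay below the GFP mean, and 4 of the 5 lay below the whole GFP range; replicate 1 exceeded the lowest GFP library by less than 1 CPM. The log2 fold change was −0.92 (SE 0.32, edgeR unadjusted p = 0.012, adjusted p = 0.729). It was −1.04 without Fezf2 + GFP replicates 1, 2 and 4, a setting chosen after the data were seen. There Epha3 passed over all genes (edgeR adjusted p = 0.0308), among 6 genes called in place of 2. With no low-count filter the log2 fold change was −0.94, and Epha3 also passed (edgeR adjusted p = 0.000685), among 117 genes called. In the other settings tried it did not pass, and its adjusted p ranged from 0.153 to 0.999.

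Epha7, a receptor that shapes corticothalamic maps and dendrites, had 179, 129.5, 114, 98.5 and 102.5 CPM in Fezf2 + GFP replicates 1 to 5, against 87.2, 85.3 and 106 CPM in GFP replicates 1 to 3. Each Fezf2 + GFP library lay above the GFP mean, though replicates 4 and 5 lay within the GFP range (log2 fold change 0.43, SE 0.20, edgeR unadjusted p = 0.046; 0.23 without replicates 1, 2 and 4). Epha4 had 233, 186, 273, 229.9 and 209.7 CPM with Fezf2 + GFP and 196, 202 and 213 CPM with GFP. Its groups overlapped, at a log2 fold change of 0.15 (SE 0.15). Epha5, a receptor of ephrin-A ligands in cortical and thalamic maps, ranged from 107 to 193 CPM with Fezf2 + GFP and from 152 to 183 CPM with GFP. Epha1, Epha6, Epha8 and Epha10 had means of 2.33 to 12.8 CPM with Fezf2 + GFP and 1.08 to 14.5 CPM with GFP, and their fold changes had SEs of 0.34 to 0.96. Epha8 varied widely within both groups, from 0.289 to 9.55 CPM with Fezf2 + GFP and from 1.003 to 6.78 CPM with GFP, and its log2 fold change was 0.22 over all libraries and 1.35 without replicates 1, 2 and 4. Epha2 had counts in Fezf2 + GFP replicate 2 and GFP replicate 1 alone, at 0.791 and 1.05 CPM; a count of 0 in the other libraries allows up to 3 counts, or 0.705 to 0.885 CPM.

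Ephb1, the receptor with an earlier link to Fezf2, did not pass the test. It had 139.8, 76.5, 65.3, 40.7 and 70.5 CPM in Fezf2 + GFP replicates 1 to 5, against 80.5, 98.1 and 93.2 CPM in GFP replicates 1 to 3. Replicate 1 lay above each GFP library and the other 4 below each, so the log2 fold change of −0.21 (SE 0.28, edgeR unadjusted p = 0.475) averages libraries that went in opposite directions. Without Fezf2 + GFP replicate 1 it was −0.51, and without replicates 1, 2 and 4 it was −0.41.

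Ephb3, a receptor of axons that form the corpus callosum and of progenitors, had 14.7, 15.8, 9.63, 20.5 and 19.1 CPM with Fezf2 + GFP and 9.50, 9.28 and 8.55 CPM with GFP. Every Fezf2 + GFP library lay above every GFP library, replicate 3 narrowly (log2 fold change 0.80, SE 0.32, edgeR unadjusted p = 0.024). In the deposited RPKM values of the same libraries the Ephb3 groups overlapped. Ephb4, best known as the ephrin-B2 receptor of venous endothelium, had 20.6, 2.90, 10.8, 15.9 and 3.10 CPM with Fezf2 + GFP and 3.87, 5.27 and 5.31 CPM with GFP. It was high in replicates 1, 3 and 4 and below the GFP range in replicates 2 and 5 (log2 fold change 1.15, SE 0.60; 0.55 without replicates 1, 2 and 4). Endothelial and pericyte markers summed to 78.1, 187, 53.6, 125 and 104 CPM in the same 5 libraries and 48.7 to 66.5 CPM in the GFP libraries. Of these markers, Rgs5 had 34.5, 115.8, 32.4, 71.9 and 59.9 CPM in Fezf2 + GFP replicates 1 to 5. Kdr had 19.2, 8.97, 1.41, 3.76 and 4.39 CPM there. The part of vessel cells in the Ephb4 values was not tested. Ephb2 had 91.0 to 149 CPM with Fezf2 + GFP and 124 to 136 CPM with GFP. Ephb6, a member whose kinase is inactive, had 14.8 to 44.9 CPM with Fezf2 + GFP and 12.1 to 35.2 CPM with GFP, at a log2 fold change of 0.28 (SE 0.37; 0.66 without replicates 1, 2 and 4).

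Of the ephrins, Efnb1 had the largest difference. This ligand of EphB receptors, which maintains cortical progenitors, had 34.2, 47.5, 17.2, 24.0 and 58.9 CPM in Fezf2 + GFP replicates 1 to 5, against 15.5, 18.1 and 26.5 CPM in GFP replicates 1 to 3. Replicates 1, 2 and 5 lay above the GFP range and replicates 3 and 4 within it (log2 fold change 0.87, SE 0.36, edgeR unadjusted p = 0.029). Efnb1 is X-linked, and the highest Fezf2 + GFP library and the lowest GFP library were the 2 with the female transcript Xist, at 5098 and 5134 CPM against 17.7 to 25.3 CPM in the others. Efnb2 had 266, 219, 262, 257 and 249.5 CPM with Fezf2 + GFP and 308, 262 and 282 CPM with GFP. Each Fezf2 + GFP library lay below the GFP mean (log2 fold change −0.18, SE 0.13). Efnb3 had 66.5 to 119.8 CPM with Fezf2 + GFP and 79.6 to 109 CPM with GFP. All 4 tested ephrin-A genes had log2 fold changes below 0, from −0.28 to −0.46, with SEs of 0.31 to 0.58 and overlapping groups. The highest of them per length was Efna2, at 27.4, 15.8, 15.3, 11.6 and 37.7 CPM with Fezf2 + GFP and 32.7, 29.9 and 21.2 CPM with GFP. Efna5, a repellent of many cortical and thalamic axons, had 5.99 ± 2.08 CPM with Fezf2 + GFP and 7.76 ± 7.10 CPM with GFP (SD, n = 5 and n = 3), and its count may share reads with its second row.

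Robo2 and Robo1 had lower means with Fezf2 and a wide spread. Robo2 had 562, 524, 409, 266 and 396 CPM in Fezf2 + GFP replicates 1 to 5, against 539.5, 568 and 563 CPM in GFP replicates 1 to 3. Replicates 2 to 5 lay below the GFP range and replicate 1 within it (log2 fold change −0.37, SE 0.20, edgeR unadjusted p = 0.081). Without replicates 1, 2 and 4 the log2 fold change was −0.47 (edgeR adjusted p = 0.149). Robo1, the more abundant of the Robo genes in P0 neocortex per length, had 381, 338, 195, 127 and 204 CPM with Fezf2 + GFP and 319.7, 302 and 280.1 CPM with GFP. Replicates 1 and 2 lay above the GFP range and replicates 3 to 5 below it (log2 fold change −0.27, SE 0.27). Slit2 had 90.8, 61.2, 56.6, 42.5 and 47.3 CPM with Fezf2 + GFP and 60.5, 61.7 and 48.1 CPM with GFP, and its log2 fold change was 0.07 (SE 0.23). Slit1 had 8.18 to 26.3 CPM with Fezf2 + GFP and 10.3 to 24.6 CPM with GFP. Slit3 was near the detection limit, at 0.578 to 5.40 CPM with Fezf2 + GFP and 2.29, 0 and 2.36 CPM in GFP replicates 1 to 3, where a count of 0 in replicate 2 allows up to 0.753 CPM. Robo3, which steers commissural axons of the hindbrain and spinal cord, and Robo4, of endothelial cells, did not exceed 7.91 CPM in any sorted-cell library.

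**Figure D3:**
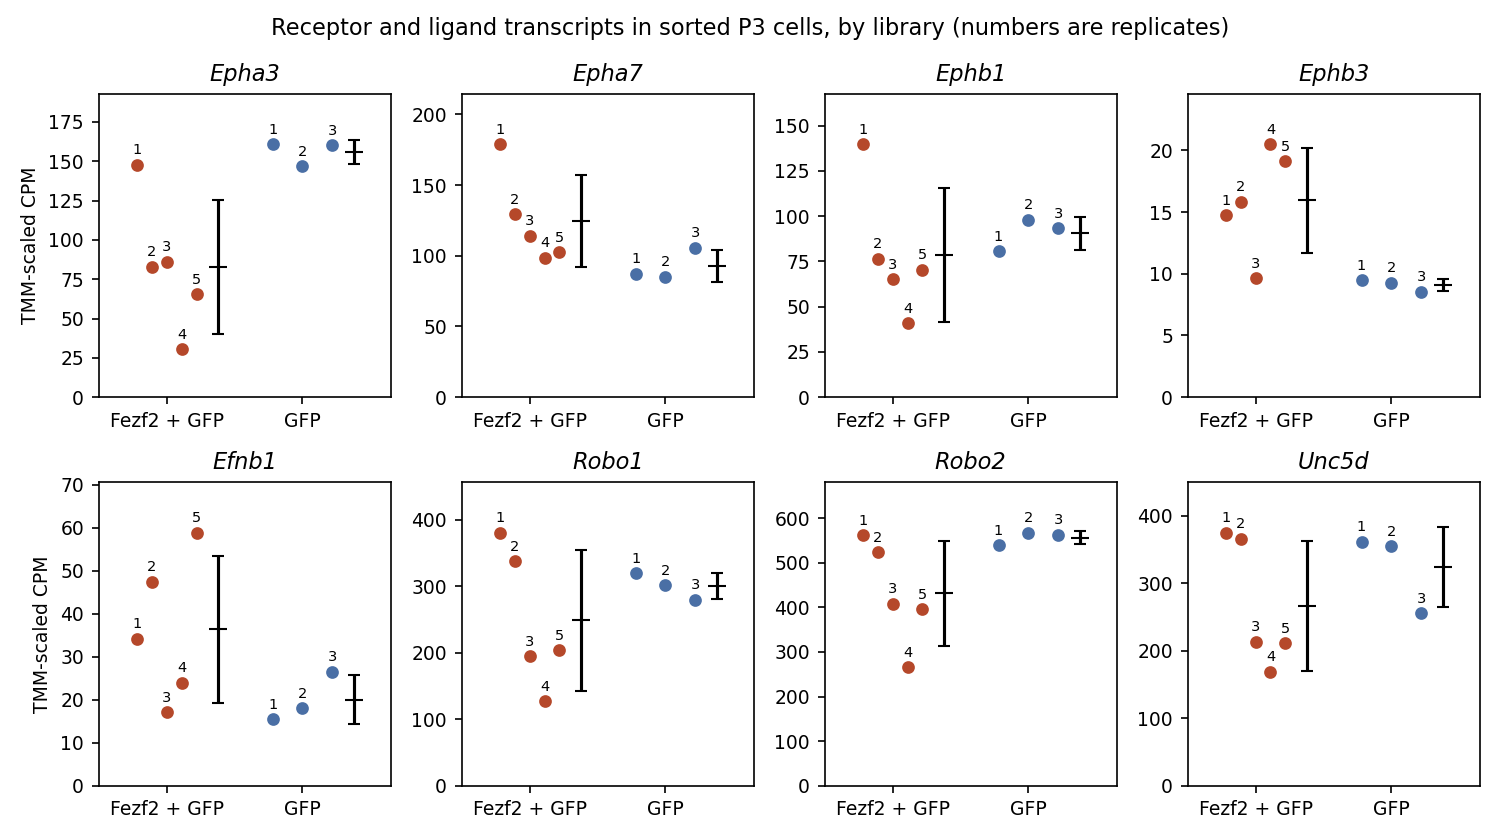
TMM-scaled CPM of 8 members in each sorted-cell library, with Fezf2 + GFP left of GFP; small numbers are replicates and black marks are the mean ± SD. The 3 GFP libraries lie close together for most genes, while Fezf2 + GFP replicate 1 is high and replicate 4 low for Epha3, Ephb1, Robo1, Robo2 and Unc5d.

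Netrin receptors did not pass the test either. Dcc had 125.9, 109, 82.5, 80.6 and 104 CPM in Fezf2 + GFP replicates 1 to 5, against 81.8, 89.6 and 103 CPM in GFP replicates 1 to 3, with overlapping groups and a log2 fold change of 0.14 (SE 0.18). Unc5c, which turns the netrin response to repulsion, had 139, 68.8, 120.8, 77.7 and 108 CPM with Fezf2 + GFP and 136, 127 and 125 CPM with GFP. Replicates 2 to 5 lay below the GFP range and replicate 1 above it (log2 fold change −0.33, SE 0.21, edgeR unadjusted p = 0.13). Unc5d, a marker of migrating upper-layer neurons, had 375, 366, 213, 169 and 211 CPM with Fezf2 + GFP and 361, 355 and 256 CPM with GFP (log2 fold change −0.28, SE 0.24). For Unc5a the log2 fold change was 0.20 (SE 0.23), and for Unc5b, a receptor also of endothelial tip cells, it was −0.15 (SE 0.43). Neo1 had 511, 492, 544, 456 and 502 CPM with Fezf2 + GFP and 418, 446 and 492 CPM with GFP, with each Fezf2 + GFP library above the GFP mean (log2 fold change 0.15, SE 0.13). The netrin genes were low: Ntn3 had 6.78, 19.5, 19.0, 13.9 and 11.6 CPM with Fezf2 + GFP and 14.1, 17.8 and 16.51 CPM with GFP. Ntn1, the classic floor-plate attractant, had 7.37, 8.18, 9.63, 23.7 and 23.2 CPM with Fezf2 + GFP and 8.27, 14.0 and 12.1 CPM with GFP. Its replicates 4 and 5 lay above the GFP range, replicates 1 and 2 below it and replicate 3 within it. Ntn4 averaged 7.94 ± 5.08 CPM with Fezf2 + GFP and 6.31 ± 1.46 CPM with GFP (SD, n = 5 and n = 3).

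The abundant members varied among the Fezf2 + GFP libraries far more than among the GFP libraries. Of the 38 members, 15 had a GFP mean of at least 50 CPM. Their median coefficient of variation was 26.2% across the Fezf2 + GFP libraries and 8.34% across the GFP libraries. The medians over all 3706 genes of that level were 18.3% and 9.55%. It was larger with Fezf2 + GFP for 13 of the 15 members and for 83.3% of those genes. In Fezf2 + GFP replicate 1, 12 of the 15 lay above the GFP range and none below it. In replicate 4, 12 of the 15 lay below the GFP range and 1 above it, and 11 of the 15 had their lowest Fezf2 + GFP value there. Replicates 2, 3 and 5 were mixed, with 8, 6 and 8 of the 15 below the range and 4, 4 and 2 above it. Among all genes tested, whatever their level, 33.6% lay below the GFP range and 34.05% above it in replicate 1. In replicate 4 these shares were 32.2% and 32.3%. In replicates 2, 3 and 5, 33.45%, 26.8% and 28.3% of genes lay below it and 33.49%, 27.1% and 28.6% above it.

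Markers of some cell types, but not all, moved with this order of libraries. Relative to the GFP mean, the summed glutamatergic neuron markers stood at log2 values of 0.31, −0.37, −0.23, −1.08 and −0.62 in Fezf2 + GFP replicates 1 to 5. Radial glia markers stood at −0.55, 0.98, −0.23, 1.33 and 0.67, and astrocyte markers at −0.53, 1.40, 0.25, 1.94 and 1.40. Replicate 1 was thus highest in glutamatergic and lowest in astrocyte and radial glia markers, and replicate 4 the reverse. Other lists ran in other orders. Interneuron markers stood at −0.49, 0.20, 0.79, 0.65 and 0.78 in replicates 1 to 5. Endothelial and pericyte markers stood at 0.45, 1.70, −0.10, 1.12 and 0.86, and microglia markers at 0.34, 1.30, 0.65, −0.01 and −0.25. Epha3 stood at −0.08, −0.91, −0.86, −2.36 and −1.25 on that scale, and Ephb1 at 0.63, −0.24, −0.47, −1.15 and −0.36. Neo1 was also lowest in replicate 4 but by little, at 0.18, 0.12, 0.27, 0.01 and 0.15, and Epha4, at 0.17 in replicate 4, was lowest in replicate 2. Summed radial glia markers ranged from 1252 to 4611 CPM with Fezf2 + GFP and from 1605 to 2216 CPM with GFP, with 7 of 7 markers higher on average. Astrocyte markers ranged from 494 to 2731 CPM with Fezf2 + GFP and from 625 to 871 CPM with GFP, with 7 of 7 higher. Oligodendrocyte lineage markers were higher on average in 6 of 6 and interneuron markers in 6 of 7, while glutamatergic neuron markers were lower in 7 of 8. None of these markers passed edgeR's test over all genes. At an unadjusted edgeR p under 0.05 were 3 astrocyte, 1 radial glia, 3 oligodendrocyte lineage, 1 interneuron and 3 glutamatergic markers. Of the other lists, 2 endothelial and pericyte, 1 striatal projection neuron and 0 microglia markers were under it. No marker of the 8 lists was at 0 in a whole group. Fewer cells of a type and less RNA per cell cannot be told apart in such samples, and the part of these markers in the members' values was not tested.

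**Figure D4:**
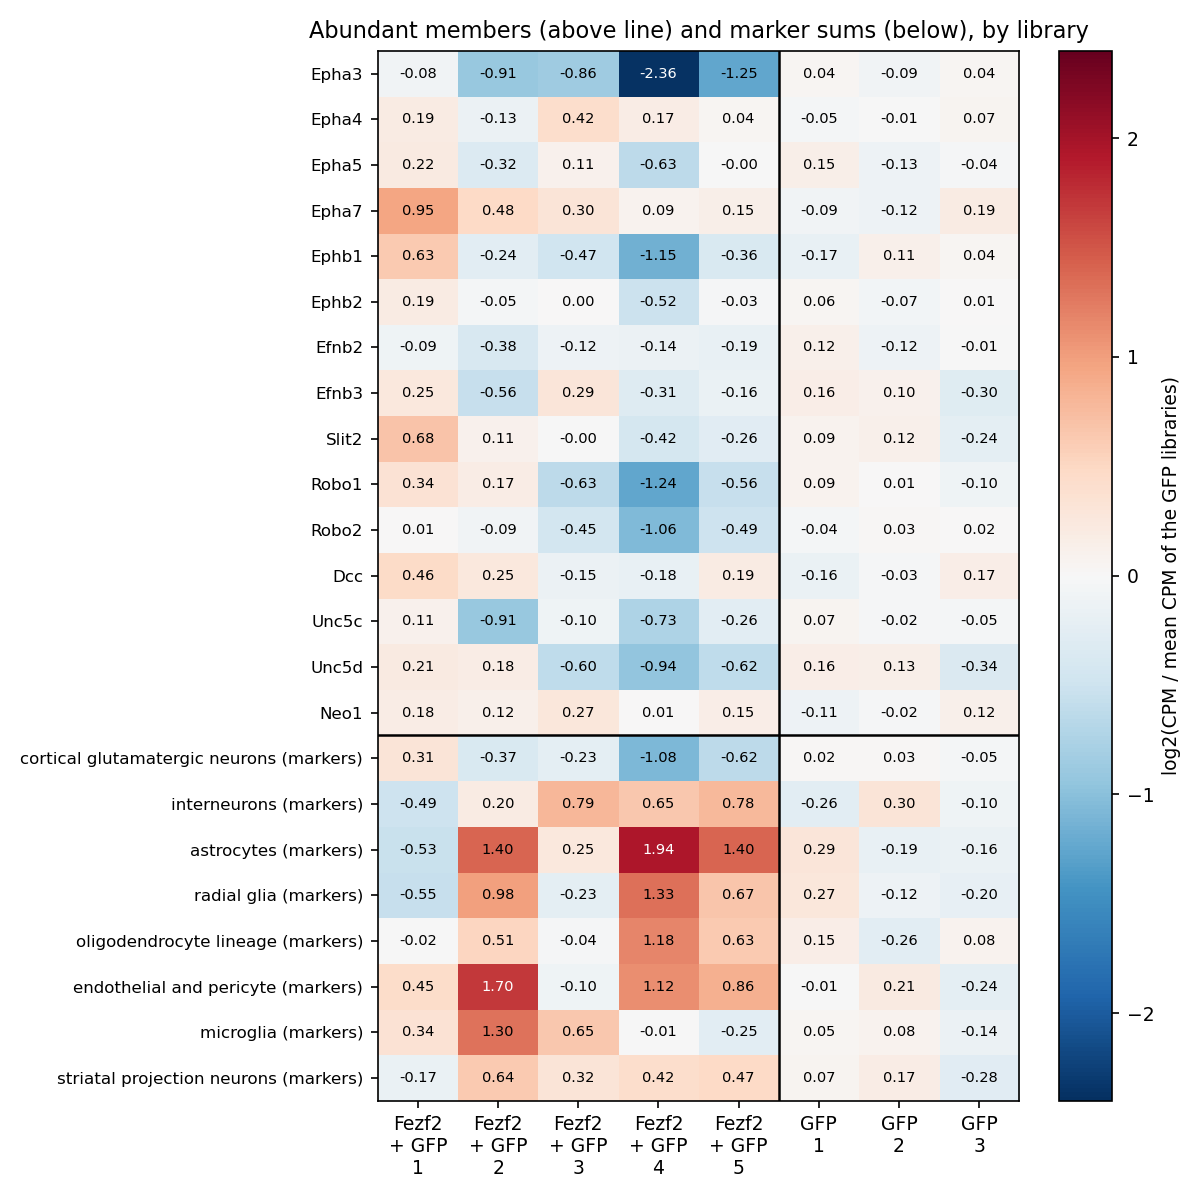
Log2 of CPM over the mean of the GFP libraries, for the 15 members with a GFP mean of at least 50 CPM (above the line) and for the summed markers of 8 cell types (below it). In Fezf2 + GFP replicate 4, Epha3, Robo1, Ephb1 and Robo2 stood at −2.36, −1.24, −1.15 and −1.06, beside glutamatergic markers at −1.08 and astrocyte markers at 1.94.

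The second comparison set the P0 neocortex labelled Fezf2 knockout against wild type. Each side was a single library, so no test was possible. Intervals are exact binomial 95% intervals that cover counting error only. Ephb1 was the member with the lowest ratio in the library labelled knockout: it had 64.4 CPM there against 112 CPM in wild type, a log2 ratio of −0.79 (interval −0.91 to −0.68). Epha7 had 72.7 against 111 CPM (log2 ratio −0.61, interval −0.72 to −0.50), and Slit3 6.61 against 10.2 CPM (−0.61, interval −1.0 to −0.24). Ntn1 was the highest, with 14.0 CPM in the library labelled knockout against 7.02 CPM in wild type (0.98, interval 0.63 to 1.37). Epha8 had 55.5 against 28.8 CPM (0.95, interval 0.77 to 1.13), Ephb4 7.84 against 4.23 CPM (0.87, interval 0.41 to 1.39) and Ephb6 115 against 73.0 CPM (0.65, interval 0.54 to 0.77).

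These 7 were the members past 1.5-fold among the 35 with at least 5 CPM in either library, 4 higher and 3 lower. Over all 11218 genes at that level, 4.76% were past 1.5-fold higher, 6.73% lower and 11.5% in either direction. Counting intervals left out 0 for 24 of the 35 members, against 61.7% of all genes, so at this depth small differences between these 2 libraries are resolved without any bearing on differences between animals. The median log2 ratio of the members was 0.20, against 0.01 over all genes, with 22 above 0 and 13 below. EphB receptors and netrins had the highest medians, 0.54 and 0.55: Ephb2 stood at 0.54, Ephb3 at 0.34 and Ntn3 at 0.55. EphA receptors had a median of −0.11.

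Of the abundant members, Neo1 had 912 CPM in the library labelled knockout against 772 CPM in wild type (log2 ratio 0.24), and Epha4 had 243 against 199 CPM (0.29). Efnb2 had 239.6 against 311 CPM (−0.38, interval −0.44 to −0.31). Dcc and Unc5c stood at 0.27 (46.6 against 38.8 CPM) and −0.18 (96.4 against 109 CPM). Robo2, Robo1, Epha3 and Slit2 had log2 ratios of −0.16, −0.05, −0.11 and −0.20. Per length, Neo1 had 123 RPKM in the library labelled knockout and 104 RPKM in wild type, in the authors' deposited values, and Efnb3 had 70.7 and 65.8 RPKM. Efna2 had 12.4 and 13.4 RPKM and Ntn3, the highest netrin, 7.20 and 4.91 RPKM.

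Other cell types differed between these 2 libraries as well. Summed endothelial and pericyte markers had 251 CPM in the library labelled knockout and 200.2 CPM in wild type, with 8 of 9 higher. Summed striatal projection neuron markers had 22.8 against 47.0 CPM, with 3 of 6 lower, and glutamatergic markers 1785 against 2256 CPM, with 5 of 8 lower. Interneuron markers had 574 against 687.5 CPM, with 6 of 7 lower, and radial glia markers 679 against 814 CPM, with 5 of 7 lower. The part of these in the members' ratios was not tested. Ratios also moved with gene length: in 5 length groups of equal size, the median was 0.11 for the shortest gene models and −0.11 for the longest. With each ratio set against its length group, Epha7 and Slit3 no longer passed 1.5-fold and Ephb2 did, while Ephb1, Epha8, Ephb4, Ephb6 and Ntn1 did as before, which made 5 higher and 1 lower in place of 4 and 3. Slit3 was also within 1.5-fold in the deposited RPKM.

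**Figure D5:**
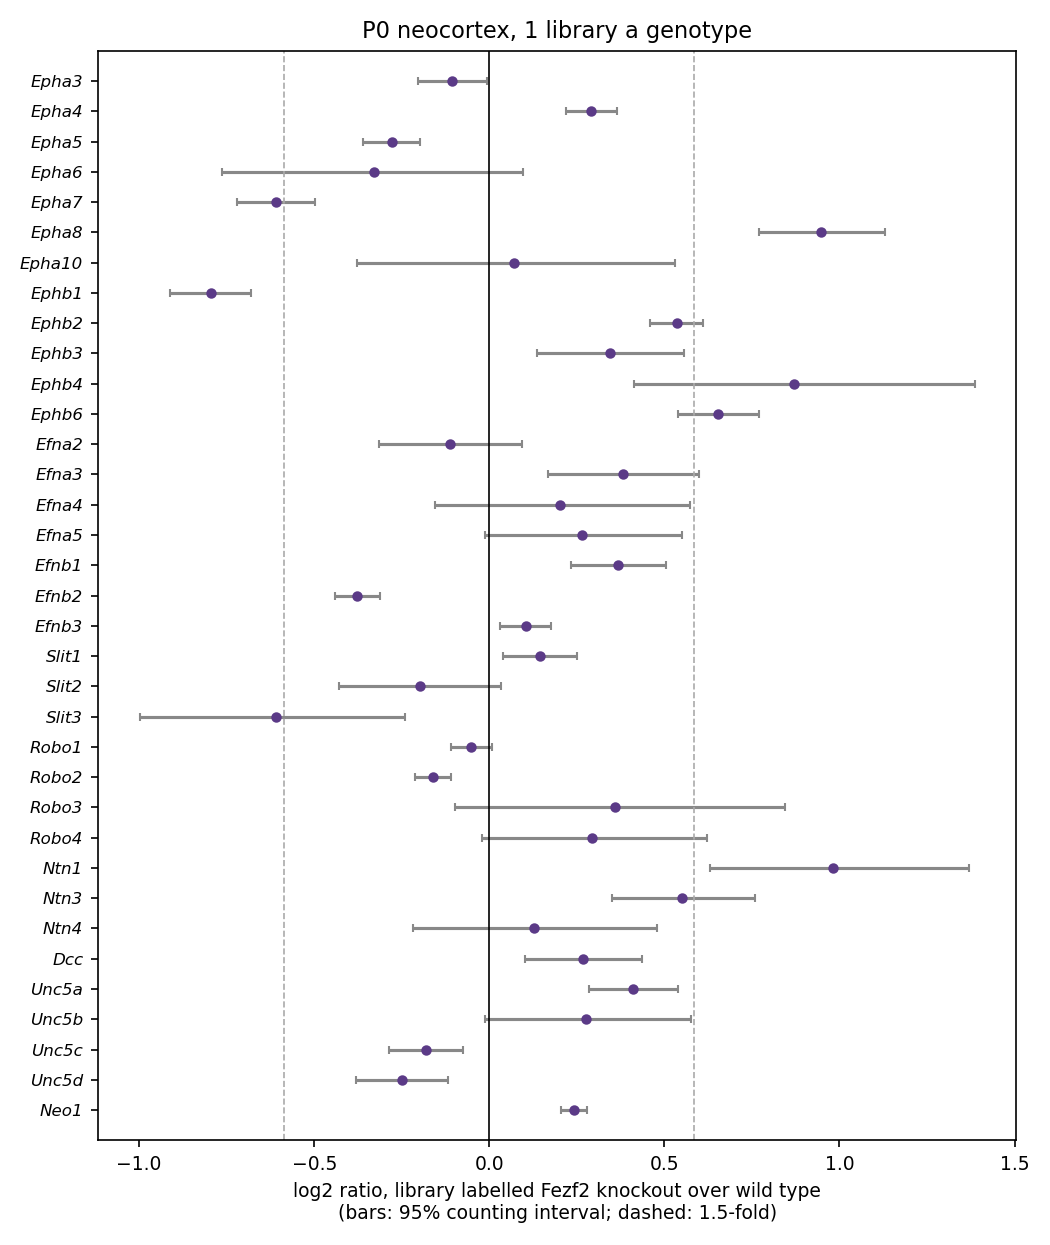
Log2 ratios of the 35 members with at least 5 CPM in either P0 neocortex library, the library labelled Fezf2 knockout over wild type; bars are 95% counting intervals and dashed lines mark 1.5-fold. Ephb1 lies lowest at −0.79, and Ntn1 and Epha8 highest at 0.98 and 0.95.

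The 2 comparisons share no library, but differ in strain, age, tissue and library kit. For 32 members with a value in both, the sign was the same in 22 and opposite in 10, where 49.97% of 10867 genes had the same sign. Ephb1 had −0.21 in sorted cells and −0.79 in neocortex. Epha7 had 0.43 and −0.61, with opposite signs. Epha3 had −0.92 and −0.11, Ephb3 0.80 and 0.34, Efnb1 0.87 and 0.37, and Ephb4 1.15 and 0.87.

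Genes that act with these receptors were taken from a list of 62 effectors and partners, of which 61 were found and tested. None passed over all genes in sorted cells (smallest edgeR adjusted p = 0.729). At an unadjusted p under 0.05 edgeR gave 3 with higher and 2 with lower means, against the 4.31% and 2.24% of all genes above, and their median log2 fold change was −0.01. The smallest p was that of Tubb3, a neuronal tubulin that binds netrin receptors, with 357 ± 69.8 CPM with Fezf2 + GFP and 497 ± 45.9 CPM with GFP (SD, n = 5 and n = 3; log2 fold change −0.48, SE 0.17). Trim9, a ubiquitin ligase of the Dcc pathway, had 402.5 ± 124 and 268 ± 44.6 CPM, and Ext1, which builds the heparan sulfate that Slits bind, 84.8 ± 19.3 and 61.9 ± 5.30 CPM, in the same order of groups. In P0 neocortex none of the 61 was past 1.5-fold higher and 5 were past it lower, beside 4.76% and 6.73% of all genes, so that the lower share is near the background. These 5 were named after their values were seen: Flrt2, a Unc5d ligand, had 48.4 CPM in the library labelled knockout against 120.3 CPM in wild type (log2 ratio −1.31), and Yes1, Vav3, Rock1 and Pak3 stood at −0.93, −0.84, −0.70 and −0.63.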

How the data were processed

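The deposited tables hold the authors' raw counts and RPKM values per Ensembl gene for 10 RNA libraries; the submitters' processing notes name STAR 2.4.0e, HTSeq 0.6.1 and the mm9 build without tying tools to steps, and the annotation and strand handling are not given in the sources used here; overlapping and antisense genes may share reads. In sorted cells the deposited RPKM were for most genes the counts per length over a larger total. Gene lengths were taken from the neocortex RPKM and counts. Of the 38 member identifiers, 37 were in the gene name table; Ntn3 was named from the count table. Members and lists were chosen with earlier results of these data known.

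Sorted cells (5 Fezf2 + GFP, 3 GFP) were tested with edgeR 4.0.16 (TMM, the filterByExpr count filter, the robust quasi-likelihood F test and Benjamini-Hochberg adjustment over 13754 genes, limit 0.05) in R 4.3.3. SEs are the absolute log2 fold change over the square root of F. In counts simulated for this comparison (13358 genes), edgeR recovered 30.6% of genes changed by a log2 value of 1 and 70.6% of those changed by 2. Neocortex log2 ratios used TMM-scaled CPM, a prior count of 2 and genes reaching 5 CPM in 1 of the 2 libraries. Binomial intervals and floors of 3 counts take in counting error alone, because amplified reads are not separate molecules. Alternatives were RLE scaling, no filter, DESeq2 1.42.0, limma 3.58.1 on log2(RPKM + 0.1), each library left out and a replicate block. Values by library are given for members with an unadjusted p under 0.05 or groups that do not overlap, for those past 1.5-fold in neocortex, for the highest member of each role and for Ephb1, Epha4, Dcc and Unc5c; Robo1 and Unc5d were added after their values were seen. ChIP-seq peaks, in mm9, were not assigned to genes, because the gene tables used are of GRCm38.p6.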

Additional observations from a re-analysis of the deposited data

Results flagged for a closer look

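Robo4 had 7.91 CPM in Fezf2 + GFP replicate 2, far from the 0.289 to 2.06 CPM of the other 4 Fezf2 + GFP libraries. Epha2 had 0.791 CPM in the same library, which is 3 counts, and 0 in the other 4; a count of 0 allows up to 3 counts, so that value is within the detection limit. Both genes were too low to be tested. Of 38 members examined in the group of 5, these 2 passed the limit of Dixon's test, Epha2 only because the other 4 values are 0, and chance alone marks about 1 in 20 groups.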

How the results depend on the processing

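No member passed in the reported fit, with RLE scaling, DESeq2, the deposited RPKM or the replicate block, or without any single library (0 to 0 called). Epha3 was the 1 member called with no low-count filter and, in a setting chosen after seeing the data, without Fezf2 + GFP replicates 1, 2 and 4; no other member was called in any setting. Groups did not overlap for 1 member as reported, Ephb3, for 2 in the deposited RPKM (Epha7 and Neo1), 3 with no filter, 9 without those 3 replicates, and 2 to 5 without single libraries (5 without Fezf2 + GFP replicate 1 or GFP replicate 3, 3 without GFP replicate 2). Shares of all genes were not computed in these other settings, and groups of fewer libraries separate more easily for any gene. Members at an unadjusted p under 0.05 numbered 4 as reported, 2 with the replicate block, 6 with no filter, 5 without those 3 replicates (0 higher and 5 lower, in place of 3 and 1), and 1 to 6 without single libraries (2 without GFP replicate 1, 1 without GFP replicate 2). Genes at that p numbered 901 of 13754 as reported and 1032 of 13754 with the block. They numbered 2030 of 26328 with no filter and 1238 of 14021 without those 3 replicates. In the RPKM the median of all genes was 0.13 in place of 0.02. Signs turned for Slit2 (−0.13 without those 3 replicates; −0.13 to 0.16 without single libraries), for Epha8 and Ntn1 with the replicate block (−0.42 and −0.43), and without single libraries for Epha8 (−0.20 to 1.42) and Ephb6 (−0.019 to 0.75); the cause was not tested. Deviations of same-numbered libraries from their group means had r of −0.06, −0.01 and −0.04 across genes. Each group was centred on its own mean, with 3 GFP libraries, so these values cannot settle whether the numbers pair the samples. The block called 6 genes in place of 2. Its fold changes take nothing from Fezf2 + GFP replicates 4 and 5, which have no GFP library of the same number. In P0 neocortex 6 or 7 members were past 1.5-fold in every setting, and the median ratio stayed between 0.18 and 0.22. SEs in sorted cells reached 0.96, for Epha8; depth and spread between libraries were not separated.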
